A study of Ovis aries with 8 samples.

Results

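Antioxidant genes of the late-gestation sheep lung were followed through array probes chosen by the wording of their descriptions. Each probe is an oligonucleotide of 60 bases, and a probe was taken when its description named superoxide dismutase, catalase, peroxiredoxin, thioredoxin, glutaredoxin, glutathione, heme oxygenase, metallothionein, selenoprotein or NAD(P)H dehydrogenase quinone. This gave 11 of the 15008 probes on the array, which stand for 8 genes of 1025 different gene names. No description among the probes analysed here contained catalase, peroxiredoxin, heme oxygenase, selenoprotein or NAD(P)H dehydrogenase quinone, or named TXNIP, the inhibitor of thioredoxin, which 2 probes outside the rule carry under its older name VDUP1. No probe had to be left out as a protein disulfide-isomerase by its description.

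The lungs came from 4 sets of twin sheep fetuses at about 130 days of a gestation of 147 days. In each set, 1 fetus was infused with 0.2 mg of aldosterone, the mineralocorticoid hormone of the adrenal cortex, over 48 hours, and its twin received vehicle as control. The labels give surgery 5 days before the infusions in both groups, so the controls carried it too. RNA of 4 aldosterone lungs and 4 control lungs was measured, each on its own array. In lung tissue, fewer cells of a type and less RNA per cell cannot be told apart.

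Superoxide dismutases turn superoxide into hydrogen peroxide, and thioredoxin and glutaredoxin then return oxidised protein thiols to their reduced form. Glutathione transferases couple the tripeptide glutathione to reactive compounds, and metallothioneins bind zinc and copper through their many cysteines. Many of these defences increase in the mammalian lung late in gestation, before the change to breathing air.

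The members are superoxide dismutase Cu-Zn (SOD1), a glutathione transferase described as M3 (LOC100037663, called GSTM3-like here), the metallothioneins MT3 and MT4, the mitochondrial glutaredoxin GLRX2, thioredoxin (TXN), TXNDC17, a small protein of the thioredoxin family, and thioredoxin domain-containing protein 4, now called ERP44, a chaperone of the early secretory pathway. ERP44 belongs to the disulfide isomerase family, but its description does not use those words. The 2 TXN probes are shown because they sample different stretches of 1 transcript, with the bases they share in capitals.
TXN probe 1: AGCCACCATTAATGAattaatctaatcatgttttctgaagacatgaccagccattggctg
TXN probe 2: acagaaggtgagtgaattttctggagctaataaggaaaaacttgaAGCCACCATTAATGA
The 2 probes overlap by 15 bases, so their agreement is partly independent. The GSTM3-like pair, by contrast, is shifted by a single base and shares the 59 bases in capitals, and so is close to 1 measurement made on separate spots.
GSTM3-like probe 1: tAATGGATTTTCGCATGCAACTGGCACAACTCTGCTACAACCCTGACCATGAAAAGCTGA
GSTM3-like probe 2: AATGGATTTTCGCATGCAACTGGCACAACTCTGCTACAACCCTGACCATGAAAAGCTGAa
The 2 MT3 probes are shifted by a single base as well. In the metallothionein probes, capitals mark the triplets TGC and TGT, the codons of cysteine, in the reading frame that holds most of them.
MT3 probe 1: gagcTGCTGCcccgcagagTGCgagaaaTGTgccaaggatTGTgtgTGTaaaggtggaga
MT4: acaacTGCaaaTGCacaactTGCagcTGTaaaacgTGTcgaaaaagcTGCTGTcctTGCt
These are 6 of 19 triplets in the MT3 probe and 8 of 19 in the MT4 probe. MT3 and MT4 lie next to each other in the sheep assembly ARS-UI_Ramb_v3.0. Metallothioneins, like the mu class of glutathione transferases, are families of closely similar genes, and whether these probes also bind other members was not tested. The GLRX2 probe is shown because its signal differed most between lungs, and it has no marked bases.
GLRX2: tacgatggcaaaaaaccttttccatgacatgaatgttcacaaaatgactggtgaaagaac

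A level here is the log2 signal of a probe on an array less that array's 75th percentile, and a log2 difference is the mean of aldosterone lungs minus the mean of control lungs. Levels are compared between lungs and not between genes, and a gap between 2 probes of 1 gene is given only to show how far they follow each other. Values of a group are listed for lungs 1 to 4, the replicate numbers of the labels, which were taken to pair twins. Spots well above background made up 76.49% to 85.41% of an array, and precision is limited by the 8 arrays. The surfactant genes SFTPA1, SFTPB and SFTPC, markers of lung tissue, were well above background on all of them. The aldosterone lung of number 2 had the lowest value on the second principal component of all probes, -41.71, where the other lungs lay between -10.86 and 22.23. Arrays of numbers 1 and 2 lay in the first row of the slide and those of numbers 3 and 4 in the second. The row was read from the array barcodes. Within a row, same-numbered arrays held neighbouring positions, so likeness of twins and likeness of position cannot be told apart. Slide row and the twin sets in it cannot be told apart.

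No measured antioxidant gene differed between aldosterone and control lungs by more than the spread between lungs. Of the 11 probes, 10 were well above background on all 8 arrays and were tested, standing for 7 genes. In limma with Benjamini-Hochberg adjustment 0 of the 10 passed at 0.05, as did 0 of all 12168 probes tested (0%), and every adjusted p rounded to 1. At an unadjusted p under 0.05 the count was 0 of 10, against 228 of all probes (1.87%). With the number as a block it was again 0 of 10, against 539 of all probes (4.43%). Aldosterone and control lungs overlapped for each of the 10, where 1.31% of all probes had groups that did not overlap. None of the 10 had the same direction in all 4 twin pairs, as 13.3% of all probes did. For 3 of the 10 the mean was higher in aldosterone lungs and for 7 lower, beside 51.5% higher over all probes. The median log2 difference was -0.05 over the members and 0.01 over all probes tested.

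**Figure D1:**
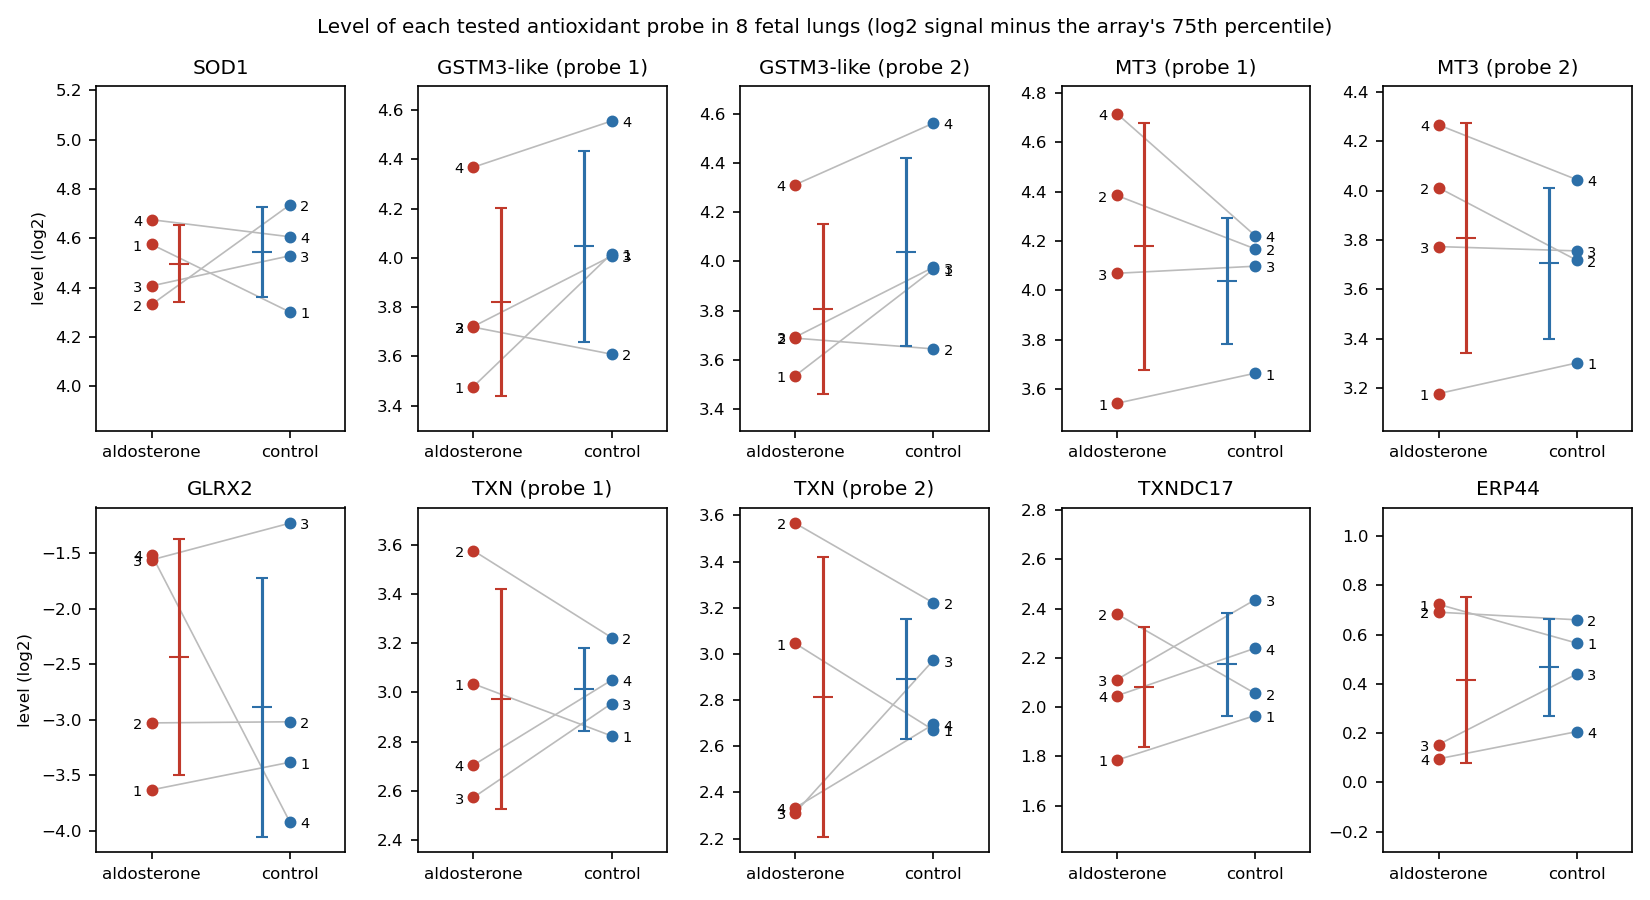
Level of each tested probe (log2 signal minus the array's 75th percentile, y axis, own range per panel) in the 4 aldosterone lungs (red, left) and the 4 control lungs (blue, right). Numbers are replicate numbers, grey lines join same-numbered twins, and bars give the mean and SD. In each of the 10 panels the 2 groups overlap.

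SOD1, the cytosolic copper-zinc enzyme that removes superoxide, was the steadiest of the members. Its levels were 4.58, 4.33, 4.41 and 4.68 in aldosterone lungs and 4.30, 4.74, 4.53 and 4.61 in control lungs. No lung of either group was more than 1.35-fold from any other. The log2 difference was -0.05 ± 0.15 (limma SE, n = 4 per group), and its 95% interval ran from 0.769-fold to 1.22-fold. Its SD over the 8 lungs, 0.159, was smaller than that of 87.1% of all probes tested. The twins split evenly, with a higher level in the aldosterone twin in 2 of 4 pairs.

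The GSTM3-like transferase had the lowest unadjusted p of the members, 0.358 on probe 2 and 0.388 on probe 1 in limma. Probe 1 gave levels of 3.48, 3.72, 3.72 and 4.37 in aldosterone lungs, against 4.02, 3.61, 4.01 and 4.56 in control lungs. The aldosterone twin was lower in pairs 1, 3 and 4 and higher in pair 2. Its log2 difference was -0.23 ± 0.25, with an interval from 0.579-fold to 1.26-fold. The second probe, at -0.23 ± 0.24, followed the first to within 0.06 on the log2 scale on every array. Without control 4 the log2 differences of the 2 probes were -0.06 and -0.06, and without aldosterone 4 they were -0.41 and -0.40. In both groups the lung of number 4 was the highest, and with the number as a block the standard error of probe 1 was 0.14 (unadjusted p = 0.157, adjusted p = 0.878 in limma). For probe 2 it was 0.12 in that model (unadjusted p = 0.114, adjusted p = 0.878 in limma).

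The metallothioneins divided by signal. MT3, first described in human brain as a growth inhibitory factor, was measured by a pair of bright probes. On the brighter one its levels were 3.54, 4.39, 4.07 and 4.72 in aldosterone lungs, against 3.66, 4.17, 4.10 and 4.22 in control lungs. Number 1 held the lowest lung of both groups and number 4 the highest. The log2 difference was 0.14 ± 0.25 (interval 0.739-fold to 1.65-fold), and 0.10 ± 0.25 on the other probe. Without aldosterone 4 the MT3 probes gave -0.04 and -0.05, and without aldosterone 1 they gave 0.35 and 0.31. Between twins the difference on the brighter probe ran from -0.12 in pair 1 to 0.49 in pair 4. On the other probe pairs 1 to 4 gave -0.12, 0.29, 0.02 and 0.22, so pair 2 was the highest there. The second probe lay below the first by 0.18 to 0.45 on every array although they share all but the end bases. MT4, known in mouse from stratified squamous epithelium, was not well above background on any of the 8 arrays, so no difference is given for it.

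GLRX2, a glutathione-dependent oxidoreductase of mitochondria, varied most between lungs. Its levels were -3.63, -3.03, -1.56 and -1.52 in aldosterone lungs, against -3.38, -3.02, -1.23 and -3.92 in control lungs. The lungs at the top were both of number 3 and the aldosterone lung of number 4, while the control lung of number 4 was the lowest of all. Before scaling, the spot intensity ran from 82.7 to 603 over the 8 arrays. After scaling, the highest and the lowest lung differed 6.45-fold, and only 2.24% of all probes tested had a larger SD over the 8 lungs than its 1.06. The log2 difference of 0.45 ± 0.66 rested on pair 4, where the twins differed by 2.41, while the other pairs gave -0.25, -0.01 and -0.33. Its interval, from 0.488-fold to 3.84-fold, is the widest of the members. Without the control lung of number 4 the log2 difference was 0.11, and without that of number 3 it was 1.01. It was 0.15 without the aldosterone lung of number 4, 0.16 without that of number 3, 0.85 without that of number 1, and 0.29 without control 1.

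**Figure D2:**
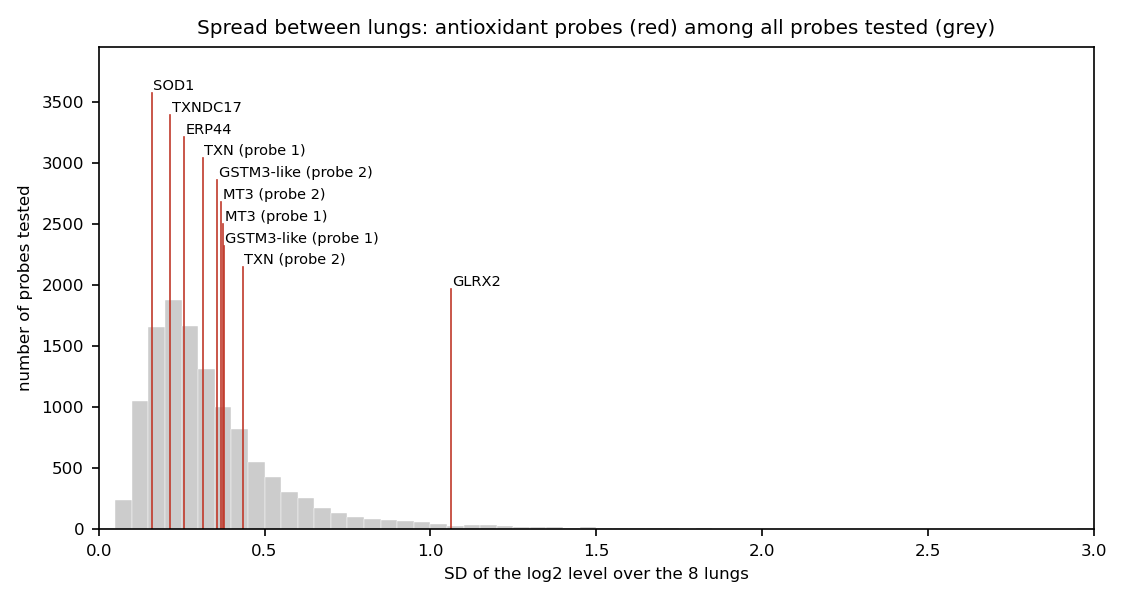
Histogram of the SD of the log2 level over the 8 lungs (x axis) for all probes tested (grey bars, y axis number of probes, with SDs of 3 and above in the last bar), and the SD of each tested antioxidant probe (red lines). GLRX2, at 1.06, stands far to the right of the other members, which lie between 0.159 and 0.434.

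TXN, the small dithiol protein that reduces peroxiredoxins and ribonucleotide reductase, gave nearly the same group means with opposite twin differences. Probe 1 had levels of 3.03, 3.58, 2.57 and 2.71 in aldosterone lungs, against 2.82, 3.22, 2.95 and 3.05 in control lungs. The aldosterone lungs spanned the controls on both sides, with an SD of 0.447 against 0.168. Probe 2 had 3.05, 3.57, 2.31 and 2.33 in aldosterone lungs, against 2.67, 3.22, 2.97 and 2.69 in control lungs. The log2 difference was -0.04 ± 0.22 (interval 0.684-fold to 1.38-fold) on probe 1 and -0.08 ± 0.29 on probe 2. Between twins, TXN probe 1 was higher in the aldosterone lung by 0.21 and 0.35 in pairs 1 and 2 and gave -0.38 and -0.34 in pairs 3 and 4. On probe 2 the same pairs gave 0.38, 0.35, -0.66 and -0.36. Without the aldosterone lung of number 2, the highest on both probes, the log2 differences were -0.24 and -0.33. Without other single lungs the sign turned on both probes: they gave 0.09 and 0.09 without aldosterone 3, 0.05 and 0.09 without aldosterone 4, and 0.03 and 0.04 without control 2.

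The split of the TXN twins follows the rows of the slide. Within the first row the mean difference was 0.28 on probe 1 and 0.36 on probe 2, and within the second row it was -0.36 and -0.51. The change in effect from the first to the second row was -0.65 ± 0.35 on probe 1 and -0.87 ± 0.38 on probe 2 (limma interaction, adjusted p = 0.999 for both, unadjusted p = 0.106 and 0.0564). Over all probes 0 passed this interaction test after adjustment (0%), and 2.04% had an unadjusted p under 0.05. The row was taken up after the data were seen, so the TXN p-values describe the split and do not test it. ERP44 split its pairs the same way, so that 3 of the 10 member probes had both pairs of 1 row higher and both of the other lower, beside 11.5% of all probes. Of these 3 probes, 2 read the same TXN transcript, so the count is not one of separate genes. Of the 3 red cell genes measured, HBB and AHSP were highest within each group in the lung of number 2, as TXN was, with HBB at 6.86 in aldosterone lung 2 and 7.18 in control lung 2. The third, CA1, was highest in the lung of number 3 in both groups, at 1.22 in aldosterone lungs and 1.34 in control lungs. The aldosterone twin was higher in 1 of 4 pairs for HBB, 0 for AHSP and 1 for CA1, and in 2 for TXN. The likeness given here is of the highest lung alone. The part of red cells in the TXN values was not tested.

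ERP44, which retains partly folded proteins through mixed disulfides, separated by replicate number in both groups. Its levels were 0.72, 0.69, 0.15 and 0.10 in aldosterone lungs, against 0.57, 0.66, 0.44 and 0.21 in control lungs. All 4 lungs of numbers 1 and 2 lay above all 4 lungs of numbers 3 and 4. The second slide row minus the first gave -0.44 ± 0.13 in a limma model with group and row (adjusted p = 0.139, unadjusted p = 0.00831). In that model 22.6% of all probes had an unadjusted p under 0.05 for the row and 0.131% passed after adjustment. Here too the row was taken up after the data were seen, so the ERP44 p-value is a description alone. The log2 difference between aldosterone and control was -0.05 ± 0.19 (interval 0.712-fold to 1.31-fold), 0.09 within the first row and -0.20 within the second. It was 0.04 without the aldosterone lung of number 3, 0.05 without that of number 4 and 0.01 without control 2.

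**Figure D3:**
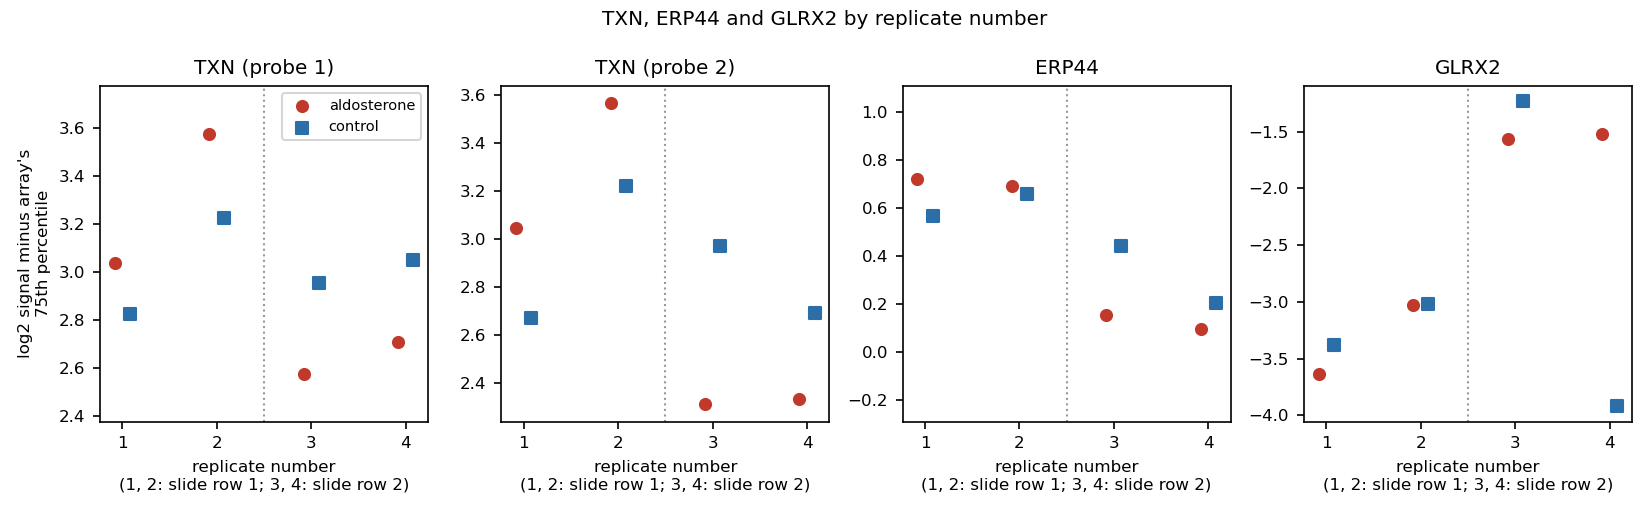
Levels of TXN, ERP44 and GLRX2 (y axis, log2 signal minus the array's 75th percentile) by replicate number (x axis) in aldosterone lungs (red circles) and control lungs (blue squares), with a dotted line between the slide rows. TXN is higher in the aldosterone twin for numbers 1 and 2 and lower for 3 and 4, ERP44 is lower in numbers 3 and 4 of both groups, and the GLRX2 twins of number 4 lie 2.41 apart.

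TXNDC17, a cytosolic protein with a thioredoxin fold, had levels of 1.79, 2.38, 2.11 and 2.05 in aldosterone lungs, against 1.97, 2.06, 2.44 and 2.24 in control lungs. The groups overlapped over most of their range. The log2 difference was -0.09 ± 0.17 (interval 0.717-fold to 1.23-fold), and the aldosterone twin was lower in 3 of 4 pairs. Within the first row it was 0.07 and within the second -0.26.

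**Figure D4:**
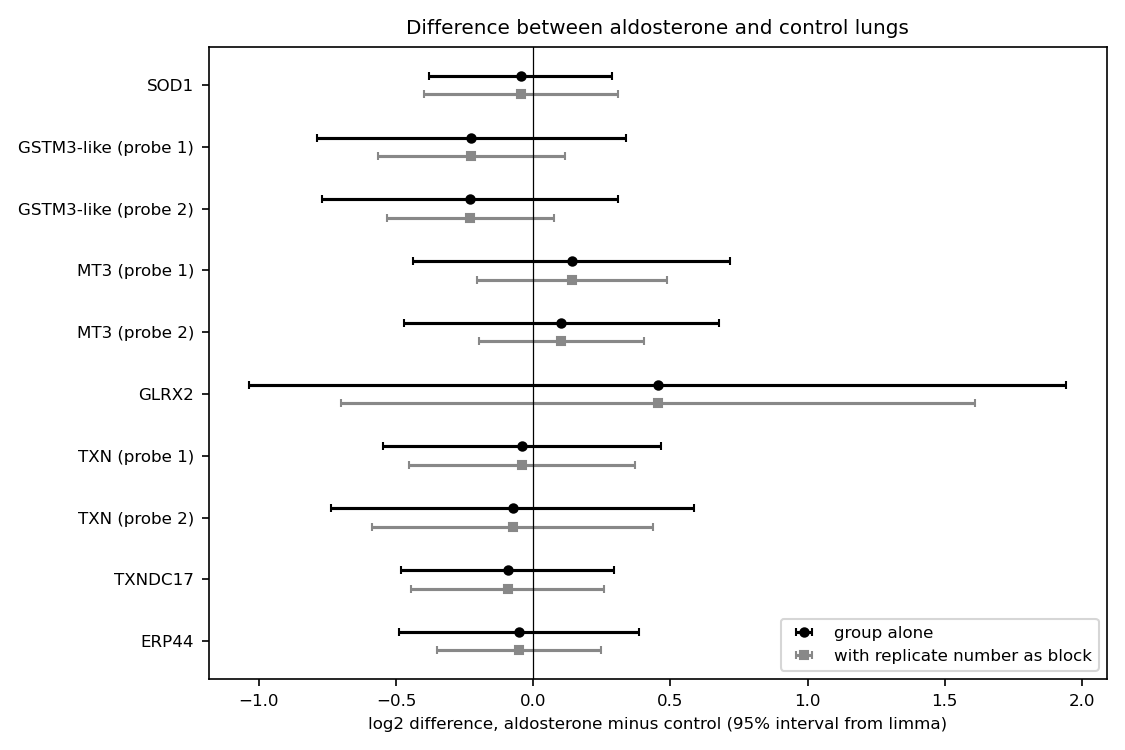
Log2 difference, aldosterone minus control, of the 10 tested probes (x axis) with its 95% interval from limma, for the model with group alone (black circles) and for the model that adds the replicate number (grey squares). Every interval includes 0, and that of GLRX2 is the widest.

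Genes that work beside these enzymes gave no call. From a list of 60 genes of NADPH supply, iron storage, oxidant production and their regulators, 16 were measured, 10 with a higher and 6 with a lower mean in aldosterone lungs. None passed in limma, 0 had an unadjusted p under 0.05 (1.87% of all probes), and their median log2 difference was 0.05 beside 0.01 over all probes. Of the enzymes that supply NADPH, PGD gave 0.08 ± 0.14, IDH1 0.03 ± 0.19 and ME1 0.32 ± 0.25, the last higher in 4 of 4 pairs as 7.68% of all probes were. TALDO1, an enzyme of the pentose phosphate pathway, gave 0.21 ± 0.25 and FTH1, the heavy chain of ferritin, -0.01 ± 0.14.

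Some probes carry an antioxidant gene's name while their description holds only a clone identifier. VDUP1 is an older name of TXNIP, which binds reduced thioredoxin and inhibits it, and its brighter probe gave 4.98, 5.08, 4.81 and 5.51 in aldosterone lungs, against 5.01, 4.99, 5.34 and 5.16 in control lungs. The groups overlapped, and the aldosterone twin was higher in 2 of 4 pairs. The log2 difference was -0.03 ± 0.18 on this VDUP1 probe and 0.00 ± 0.17 on the other. The remaining names were picked for mention after their values were seen. GLRX, the cytosolic glutaredoxin, gave -2.17, -1.52, -3.27 and -1.67 in aldosterone lungs, against -1.53, -1.66, -1.13 and -2.26 in control lungs. Its lowest lung was aldosterone 3 and its highest control 3, and the log2 difference was -0.51 ± 0.39 with 2 of 4 pairs higher. SOD2, the manganese enzyme of mitochondria, had 2 such probes with log2 differences of -0.19 ± 0.30 and -0.17 ± 0.32. Its first probe gave -0.96, -0.39, -1.15 and -0.66 in aldosterone lungs, against -0.94, -0.72, -1.02 and 0.29 in control lungs, with the control lung of number 4 above all others. Probes named GSTA1 or GSTA1-1, alpha class glutathione transferases, gave 0.13 ± 0.23, 0.06 ± 0.16, -0.11 ± 0.19 and -0.17 ± 0.26. None of these 9 probes had an unadjusted p under 0.05 in limma.

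Among markers of other cell types, the neutrophil, red cell and type I cell lists had lower means throughout in aldosterone lungs. No marker passed after adjustment. All 5 measured neutrophil genes, CATHL3 among them, had lower means in aldosterone lungs, 3 with an unadjusted p under 0.05 (1.87% of all probes). CATHL3, CATHL1B, BAC5 and SC5, all cathelicidins, were lower in the aldosterone twin in all 4 pairs, and LTF in 3. The 3 genes under 0.05 are of this 1 family, so the counts are not of unrelated genes. LTF, outside the family, had an unadjusted p of 0.229 in limma. Over all probes 51.5% had a higher mean in aldosterone lungs, and 13.3% had the same direction, up or down, in all 4 pairs. The lists were chosen with earlier results of these data known, so these counts are a description and not a test. The mean level of the list ran from -0.71 to 0.30 in aldosterone lungs and from -0.07 to 1.96 in control lungs. All 3 red cell genes had lower means, with list levels of -0.80 to 2.01 in aldosterone lungs and 0.05 to 2.00 in control lungs. Their log2 differences were -0.40 ± 0.69 for HBB, -0.72 ± 0.99 for AHSP and -0.76 ± 0.86 for CA1, each smaller than its standard error. Of the macrophage and monocyte genes 2 of 3 had a higher mean in aldosterone lungs, as had 2 of 3 endothelial genes, 1 of 2 airway secretory, 1 of 2 liver, 1 of 3 type II cell and 0 of 2 type I cell genes. The part of these cells in the member values was not tested.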

How the data were processed

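RNA of 8 whole fetal lungs, 450 ng each, was labelled with Cy3 and hybridised to 1-colour Agilent sheep arrays. Spot intensity, linear, was deposited as scanner files. Per the file headers, Agilent Feature Extraction 10.1.1.1 had corrected it for background and spatial trends and had set surrogates for values near background. The authors also deposited log2 values of 12762 spots as a series table. Each column equalled the log2 processed intensity of its array less a constant within 0.001, with a median of 0, and 12 to 262 cells were empty. No normalization between arrays is recorded in the file headers.

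The 75th percentile of each array (10.23 to 10.73) was subtracted from the log2 processed signal, values of spots flagged as outliers were left out, and spots of a probe were averaged. The 12168 probes well above background on 4 or more of the 8 arrays were tested with limma 3.58.1 in R 4.3.3 (lmFit, eBayes, two-sided, Benjamini-Hochberg adjustment over all probes, threshold 0.05, group as the only term). Intervals are 95% intervals of the moderated statistic. The limma script was tested on simulated data.

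The replicate numbers were taken to pair twins. The labels give twin sets, and after removal of group means the same-numbered samples correlated at 0.446, 0.275, 0.28 and 0.538 over 12146 probes, each above 0.1. Different-numbered samples correlated at -0.449 to 0.204. Of these, aldosterone 1 with control 2 (0.204) and aldosterone 3 with control 4 (0.11) also lay above 0.1. With group means removed, positive values force negative ones elsewhere, so the negative values add nothing to the check. Same-numbered arrays also held neighbouring positions in a slide row, so this check cannot tell twins from position. Over all probes the 8 arrays correlated at 0.974 to 0.988, so none was a copy of another.

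Names came from the RefSeq table of ARS-UI_Ramb_v3.0, used for names and neighbours alone: the accession gave 726 probe names, a gene ID 139, the symbol 484, a synonym 20, and 287 kept the file's name. SOD1 and ERP44 were named from the wording of their probe descriptions instead. Named values are those of TXNIP (VDUP1 in the files), of every member by role, and of the first 6 measured genes of the pathway list, of which 1 is not reported here. The members and lists were chosen with earlier results of these data known. Alternatives were median centring, normexp with quantile normalization, the authors' values, filters, flags, array weights, a trend, the replicate block, each lung left out, and, chosen after seeing the data, the slide row.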

Additional observations from a re-analysis of the deposited data

How the results depend on the processing

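No member probe and no probe on the array passed the adjusted threshold under any of the 18 alternatives, and 0 member probes had an unadjusted p under 0.05 in any of them. The smallest unadjusted p of a member was 0.103, for GLRX2. The count of members with a higher mean stayed at 3 outside the settings that leave out 1 lung, where it ran from 2 to 7, and their median log2 difference ran from -0.17 to 0.06 there. Over all probes, 228 had an unadjusted p under 0.05, against 932 with array weights, 539 with the replicate block, 343 with the slide row as a term, and 143 to 422 with 1 lung left out. Differences that changed sign did so only when a lung was left out. The ranges over those settings were -0.126 to 0.0185 for SOD1, -0.154 to 0.0546 for ERP44, -0.0509 to 0.313 and -0.0393 to 0.352 for MT3, -0.242 to 0.0924 and -0.326 to 0.0921 for TXN, and -0.193 to 0.00477 for TXNDC17. The causes were not tested. GSTM3-like kept its sign, at -0.408 to -0.0561 and -0.398 to -0.0557. With array weights the GSTM3-like probes gave -0.07 and -0.09, TXN -0.21 and -0.36, ERP44 -0.21 and SOD1 -0.12. GLRX2 gave 0.23 after normexp and quantile normalization, and the members' median was -0.11 on the authors' values and -0.09 after median centring. The replicate block changed no call.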
